A study of Homo sapiens with 11 samples.

Results

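The intercalated disc is the end-to-end contact between heart muscle cells, and 10 of its genes were followed here through long-term culture of cardiomyocytes made from WTC11, a widely used, established line of human induced pluripotent stem cells. The genes were chosen by name, with earlier results of these data known. They were the desmosome genes DSP, DSG2, DSC2, PKP2 and JUP, the catenins CTNNA3 and CTNNB1, and the Xin-repeat and nebulin-family genes NRAP, XIRP1 and XIRP2. All 10 were found among the 19990 genes of the count table, from which the filter on low counts removed no gene. The cells, at passage 63, came from one differentiation directed with CHIR99021, which blocks GSK3, and then IWP2, which blocks Wnt secretion. Parallel wells stayed in RPMI1640 with B27 and insulin and were taken at Day 30 (4 wells), Day 60 (3 wells) and Day 113 (4 wells). The groups therefore shared line, passage, differentiation and medium and differed in time in culture, with no untreated or genetically altered group. Poly(A) RNA was sequenced as paired-end reads.

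At the disc, adherens junctions tie the actin of the myofibrils to the membrane, and desmosomes tie the desmin filaments to it. In a desmosome, the cadherins desmoglein and desmocollin bridge the gap between cells, the armadillo proteins plakoglobin and plakophilin bind their tails, and desmoplakin links these to the filaments. In heart muscle the kinds of junction mix into a composite structure that also holds gap junctions and sodium channels, and inherited changes in its desmosomal genes are a known cause of arrhythmogenic cardiomyopathy.

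The libraries held 24.1 to 34.5 M counts (M, units of 1000000), and levels are given as CPM, counts per 1000000 counts after TMM scaling. Chi-square divided by its degrees of freedom was 11.7 to 88.7 between wells collected together, above sampling noise, so each well counted as 1 sample. The spread between wells of one differentiation covers neither another differentiation nor another line. The labels name no batch, and day and collection coincided, so they cannot be told apart. The cardiomyocyte label was checked against 8 markers, which summed to 21461 to 31956 CPM in the 11 wells. Fewer cells of a type and less RNA per cell cannot be told apart in bulk RNA.

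Stretches upstream of 5 of the genes are printed first, as examples from genes that fell (DSP, DSG2, XIRP1) and genes that rose (NRAP, XIRP2). They come from RefSeq (GRCh38.p14), in which 9 of the 10 genes had an entry, with 13 windows of the 250 bases before a start site. PKP2 had none. Each window was cut to its longest stretch outside the annotated exons of its own gene, and each is read 5′ to 3′ on the strand of its gene. The DSP stretch is chr6:7541421-7541574 on the plus strand, and the DSG2 stretch is chr18:31497927-31498042 on the plus strand. The NRAP stretch is chr10:113664128-113664291 on the minus strand, and the XIRP1 stretch is chr3:39192597-39192845 on the minus strand. For XIRP2 only the 29 bases around a motif are shown, chr2:167187289-167187317 on the plus strand, which lie inside an annotated exon of the gene and before a second, internal start site. Capitals mark CTAAAAATA, one spelling of the element bound by MEF2 muscle transcription factors.
DSP promoter: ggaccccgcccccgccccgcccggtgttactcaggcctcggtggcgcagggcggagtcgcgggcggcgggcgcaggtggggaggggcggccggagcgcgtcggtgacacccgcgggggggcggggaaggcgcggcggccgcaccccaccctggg
DSG2 promoter: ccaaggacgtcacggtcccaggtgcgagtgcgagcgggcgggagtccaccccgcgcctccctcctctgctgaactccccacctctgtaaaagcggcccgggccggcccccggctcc
NRAP promoter: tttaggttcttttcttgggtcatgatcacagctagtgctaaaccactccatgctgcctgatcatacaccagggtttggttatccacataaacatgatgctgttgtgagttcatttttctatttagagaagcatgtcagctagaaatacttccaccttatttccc
XIRP1 promoter: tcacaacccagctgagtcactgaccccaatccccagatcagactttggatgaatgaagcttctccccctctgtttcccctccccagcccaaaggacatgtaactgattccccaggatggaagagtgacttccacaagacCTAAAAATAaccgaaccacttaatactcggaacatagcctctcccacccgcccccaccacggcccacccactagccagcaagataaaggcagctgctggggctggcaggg
XIRP2 element: agctcagttcCTAAAAATAggtgccaagt
Over the uncut 250 bases the DSP window was 78.0% G or C with 33 CpG dinucleotides, and the DSG2 window was 75.2% with 26. The NRAP window was 42.4% G or C with 1 CpG dinucleotide, the XIRP1 window 55.2% with 4, and the XIRP2 windows 37.6% with 1 and 46.0% with 3. The median over the 35116 RefSeq windows of this length was 58.0% G or C with 11 CpG dinucleotides. Base composition did not sort all the genes by direction: the window of CTNNB1, which rose, was 74.4% G or C with 34. That window lies wholly inside annotated exons of CTNNB1. Those of DSC2, which fell, were 66.8% with 19, inside the gene, and 59.6% with 12. The windows of NRAP and XIRP2, which also rose, were lower in G or C than those of the genes that fell. A link between composition and direction was not tested. The letters CTAAAAATA, searched on both strands, were in 2 of the 13 windows of these genes, those of XIRP1 and of the internal start of XIRP2, and in 162 of all windows (0.461%). The match began 111 bases before the XIRP1 start and 73 bases before the XIRP2 internal start. A match of letters is a description of the sequence. Of the 2 genes with a match, XIRP1 fell and XIRP2 rose from Day 30 to Day 113.

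Between Day 30 and Day 113, 7 of the 10 genes changed. Desmoplakin, desmoglein 2, desmocollin 2 and Xin (XIRP1) fell, and beta-catenin, NRAP and XIRP2 rose. The background for this pair of days was high, with 34.5% of all 19990 genes called (17.3% higher and 17.2% lower, edgeR quasi-likelihood test, adjusted p under 0.05, the threshold for every call). The same 7 genes had no overlap between Day 30 and Day 113 wells, against 35.1% of all genes. From Day 30 to Day 60, 5 genes were called (NRAP and XIRP2 higher, DSG2, DSC2 and XIRP1 lower), against 10.3% of all genes (4.39% higher and 5.91% lower). In that interval 7 genes had no overlap between wells, PKP2 and JUP being added on the lower side, against 24.8% of all genes. From Day 60 to Day 113, 5 genes were called (CTNNB1 and XIRP2 higher, DSP, DSG2 and DSC2 lower), against 24.0% (12.9% higher and 11.1% lower), and the same 5 had no overlap, against 30.6%. The median log2 fold change of the 10 genes was -0.24, 0.14 and -0.07 for Day 60 against Day 30, Day 113 against Day 60 and Day 113 against Day 30, beside -0.01, 0.00 and -0.02 over all genes. The 3 comparisons share wells. Because the genes were chosen with earlier results of these data known, their counts beside the background are descriptions only. A joint test for any change over the 3 days called the same 7 genes as Day 113 against Day 30, against 37.1% of all genes. With the difference between the 2 intervals tested itself, edgeR called 0 of the 10 genes, against 9.34% of all genes, with 5 at an unadjusted p under 0.05. DESeq2 called 2 of them, PKP2 (adjusted p = 0.049) and NRAP (adjusted p = 0.043), against 13.2% of all genes.

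**Figure D1:**
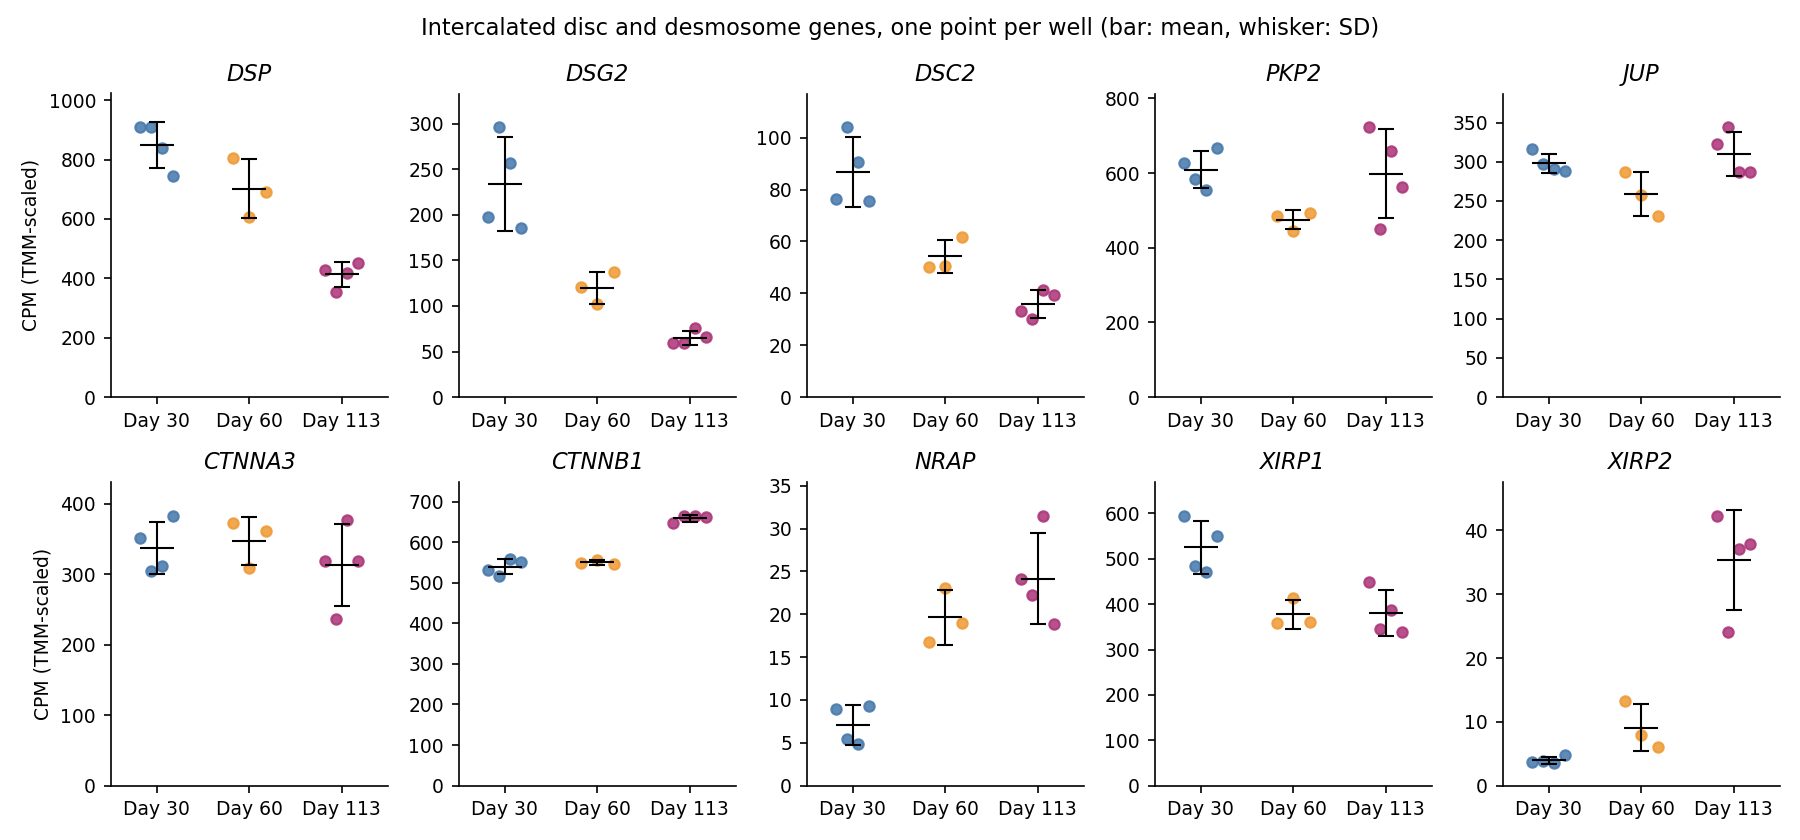
Level of each of the 10 genes in CPM (vertical axis, from 0, a different range per panel) in each well of Day 30 (4 wells), Day 60 (3) and Day 113 (4), with a bar at the mean and a whisker of 1 SD. DSG2 steps down from 234 to 120.1 to 65.0 CPM with no overlap, while XIRP2 climbs from 3.97 to 9.12 to 35.3 CPM.

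DSP encodes desmoplakin, the plaque protein that binds desmin, and lies on chromosome 6 (7541575 to 7586717, plus strand, GRCh38). Its level was 909, 909, 838 and 746 CPM in the Day 30 wells, 806, 608 and 692 CPM in the Day 60 wells, and 429, 353, 419.6 and 453 CPM in the Day 113 wells. The Day 60 wells overlapped the Day 30 wells, and every Day 113 well lay below every earlier well. From Day 30 to Day 60 the log2 fold change was -0.28 ± 0.12 (SE, edgeR adjusted p = 0.17). From Day 60 to Day 113 DSP fell by 0.76 ± 0.12 on the log2 scale (edgeR adjusted p = 0.00031), and from Day 30 to Day 113 it fell by 1.04 ± 0.11 (edgeR adjusted p = 3.9e-06), to a ratio of 0.486.

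DSG2 encodes desmoglein 2, the desmoglein of heart muscle, on chromosome 18 (31498043 to 31549008, plus strand). Its level was 198, 296, 257 and 186 CPM at Day 30, 121, 102 and 137 CPM at Day 60, and 59.5, 59.1, 75.9 and 65.6 CPM at Day 113. The 3 days did not overlap. DSG2 fell by 0.96 ± 0.16 from Day 30 to Day 60 (edgeR adjusted p = 0.00097) and by 0.88 ± 0.15 from Day 60 to Day 113 (edgeR adjusted p = 0.00071) on the log2 scale. Over the whole time it fell by 1.85 ± 0.15 (edgeR adjusted p = 1.8e-07), to a ratio of 0.278, the lowest ratio of the 10 genes. Exons of DSG2 share 171 bases with DSG2-AS1 on the opposite strand, and the sources used here do not say whether counting used strand, so reads in those bases cannot be assigned.

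DSC2, also on chromosome 18 (31058840 to 31102522, minus strand), encodes desmocollin 2, the desmosomal cadherin that pairs with desmoglein 2. Its level was 76.2, 104, 90.6 and 75.6 CPM at Day 30, 50.3, 50.7 and 61.7 CPM at Day 60, and 33.1, 30.0, 41.4 and 39.4 CPM at Day 113. The days again did not overlap, and Day 30 replicates 2 and 3 were the highest wells for both cadherins. DSC2 fell by 0.67 ± 0.14 in the first interval (edgeR adjusted p = 0.0059) and by 0.59 ± 0.14 in the second (edgeR adjusted p = 0.0058) on the log2 scale. The whole fall was 1.27 ± 0.13 (edgeR adjusted p = 2.6e-06), a log2 fold change of -1.27. DSG2 had made 52.2% of its whole log2 change by Day 60, and DSC2 53.2%. Among 11946 genes with a mean of at least 5 CPM, DSC2 was the gene most like DSG2 over the 11 libraries, and DSG2 the gene most like DSC2 (Pearson r = 0.991). The 11 points share the days, so this r describes the day pattern and has no p.

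The balance of the 2 cadherins was read as a ratio of counts in each well. The log2 ratio of DSG2 to DSC2 counts was 1.38, 1.51, 1.50 and 1.30 in the Day 30 wells, 1.26, 1.02 and 1.15 in the Day 60 wells, and 0.85, 0.98, 0.87 and 0.74 in the Day 113 wells. No well of one day reached the range of another day. The mean changed by -0.28 in each interval (exact two-sided permutation p = 0.0571, the smallest that 3 wells against 4 allow) and by -0.57 over the whole time (exact p = 0.0286, the smallest that 4 against 4 allow). Adjusted over the 12 ratio tests all 3 values were 0.098, and no smaller adjusted value was reached by any ratio. With these numbers of wells no ratio could have passed the threshold, even with every pair of days fully apart. The adjusted values therefore cannot decide whether a ratio changed.

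Markers of epithelial cells, which also build desmosomes, fell in the first interval together with DSG2 and DSC2, while DSP was not called in it. Of 8 epithelial markers, 7 fell from Day 30 to Day 60, against 10.3% of all genes called (5.91% lower). The sum of the 8 was 2162 to 3112 CPM at Day 30, 1292 to 1478 CPM at Day 60 and 1177 to 1966 CPM at Day 113. Most of it came from the keratins KRT8 and KRT18, which cardiomyocytes can also express. EPCAM, an epithelial adhesion protein, was 45.6, 92.0, 71.1 and 28.7 CPM in the Day 30 wells, with replicates 2 and 3 highest and replicate 4 lowest, as for DSG2 and DSC2. It was 1.25 to 2.62 CPM at Day 60 and 0.762 to 1.54 CPM at Day 113. The order of the Day 30 wells was not particular to epithelial markers. The 7 fibroblast markers summed to 4508, 7706, 6796 and 3353 CPM in Day 30 replicates 1 to 4. The mean of that sum fell from 5591 CPM at Day 30 to 2966 CPM at Day 60. Of these markers, DCN and POSTN had neither that order nor a fall. GRHL2, an epithelial transcription factor, had 205 to 847 counts in the Day 30 wells, 0 counts in 1 Day 60 well and 0 counts in 2 Day 113 wells. The first-interval calls of CDH1 (E-cadherin) and GRHL2 were each lost in 1 alternative (adjusted p = 0.053 with robust edgeR dispersions and 0.065 with limma-voom). In the second interval DSP, DSG2 and DSC2 fell, KRT19 and CLDN6 fell, and KRT8 and KRT18 rose. EPCAM, CDH1, ESRP1 and GRHL2 were not called with all wells. Without 1 well, edgeR called lower EPCAM (adjusted p = 0.044 without Day 30 replicate 4, 0.049 without Day 113 replicate 3), CDH1 (0.0083 without Day 113 replicate 2) and GRHL2 (0.025 without Day 60 replicate 2). At Day 113, CDH1 and the sum of the epithelial markers were highest in replicate 2, at 12.7 and 1966 CPM. KRT8, KRT18, KRT19 and CLDN6 were also highest in that well. EPCAM, ESRP1 and GRHL2 were highest in other wells, at low counts for EPCAM (19 to 54) and GRHL2 (0 to 3). DSP, DSG2 and DSC2 were each lowest in replicate 2, DSG2 by a narrow margin (59.1 CPM against 59.5 CPM in replicate 1). The part of epithelial cells or fibroblasts in the falls was not tested.

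**Figure D2:**
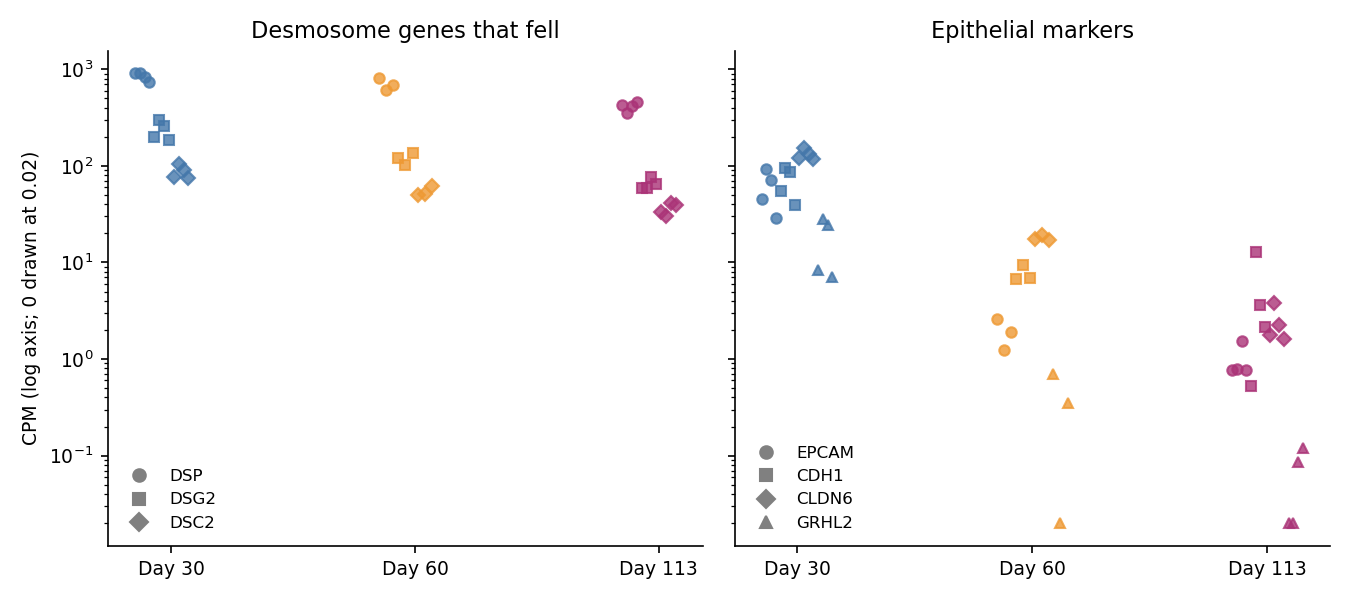
CPM per well (vertical log axis, 0 drawn at 0.02) of DSP, DSG2 and DSC2 (left) and of the epithelial markers EPCAM, CDH1, CLDN6 and GRHL2 (right) at Day 30, Day 60 and Day 113. The markers drop steeply between Day 30 and Day 60, as with EPCAM from a mean of 59.4 to 1.93 CPM, while DSG2 and DSC2 step down over both intervals and the DSP wells of Day 30 and Day 60 overlap.

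PKP2 and JUP, which encode the plaque proteins plakophilin 2 and plakoglobin, did not follow the cadherins. PKP2 lies on chromosome 12 (32790745 to 32896840, minus strand) and is the gene most often altered in inherited arrhythmogenic cardiomyopathy. Its level was 628, 585, 554 and 668 CPM at Day 30, 485, 446 and 494 CPM at Day 60, and 723, 449.9, 659 and 564 CPM at Day 113. Every Day 60 well lay below every Day 30 well, and the Day 113 wells spanned both ranges. The log2 fold change was -0.36 ± 0.14 in the first interval (edgeR adjusted p = 0.11), 0.33 ± 0.14 in the second (edgeR adjusted p = 0.086) and -0.02 ± 0.12 over the whole time (edgeR adjusted p = 0.91). PKP2 was thus called in no pair of days, but this depended on the wells and days fitted. Without Day 113 replicate 2, PKP2 was called lower from Day 30 to Day 60 (edgeR adjusted p = 0.024) and higher from Day 60 to Day 113 (0.45, edgeR adjusted p = 0.0056), and the difference between the intervals was called (edgeR adjusted p = 0.011). A fit of Day 30 and Day 60 alone also called the first step (edgeR adjusted p = 0.017).

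JUP lies on chromosome 17 (41754604 to 41786931, minus strand) and encodes plakoglobin, the catenin found in both desmosomes and adherens junctions. Its level was 316, 297, 290.3 and 288 CPM at Day 30, 287, 258 and 231 CPM at Day 60, and 323, 344, 287 and 287 CPM at Day 113. The Day 60 wells lay below the Day 30 wells by a narrow margin, and Day 113 overlapped both. The log2 fold change was -0.20 ± 0.10 and then 0.26 ± 0.10 (edgeR adjusted p = 0.25 and 0.075), and 0.06 ± 0.09 over the whole time (edgeR adjusted p = 0.68). With library totals in place of TMM scaling the second step was called (edgeR adjusted p = 0.037). A test that misses the threshold does not show that PKP2 or JUP kept their levels.

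CTNNB1 encodes beta-catenin, the close relative of plakoglobin that binds classical cadherins and also acts in Wnt signalling, on chromosome 3 (41194741 to 41260096, plus strand). Its level was 531, 517, 558 and 552 CPM at Day 30, 548, 557 and 545 CPM at Day 60, and 646, 665, 664 and 661 CPM at Day 113. The first 2 days overlapped, and all 4 Day 113 wells stood above them. CTNNB1 rose by 0.29 ± 0.08 on the log2 scale from Day 30 to Day 113 (edgeR adjusted p = 0.008), a ratio of 1.22. It had the smallest spread of the 10 genes on each day, with a coefficient of variation of 3.56%, 1.12% and 1.37% at Day 30, Day 60 and Day 113, beside medians of 9.16%, 10.8% and 14.1% over genes of at least 5 CPM. From Day 60 to Day 113 it rose by 0.26 ± 0.08 (edgeR adjusted p = 0.031). That call was lost in 8 of the 20 alternatives (adjusted p from 0.052 to 0.1), among them upper-quartile scaling, a fit of those 2 days alone and the fits without any one Day 60 well, without Day 30 replicate 2, or without Day 113 replicate 3 or 4.

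Within a well, the log2 ratio of JUP to CTNNB1 counts was -0.75, -0.80, -0.94 and -0.94 at Day 30, -0.93, -1.11 and -1.24 at Day 60, and -1.00, -0.95, -1.21 and -1.20 at Day 113. Every Day 113 well lay below every Day 30 well, and Day 60 overlapped both. The mean differed by -0.23 between Day 113 and Day 30 (exact permutation p = 0.0286, adjusted 0.098), by -0.24 between Day 60 and Day 30 (exact p = 0.171) and by 0.00 between Day 113 and Day 60 (exact p = 1).

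CTNNA3 encodes alphaT-catenin, an actin-binding catenin that also binds plakophilin 2 and is typical of the heart's composite junction, and spans 1783.7 kb on chromosome 10 (65912518 to 67696169, minus strand). Its level was 351, 305, 311 and 383 CPM at Day 30, 372, 309 and 362 CPM at Day 60, and 319, 237, 377 and 319 CPM at Day 113. All 3 days overlapped. The log2 fold changes were 0.04 ± 0.14, -0.15 ± 0.14 and -0.11 ± 0.13 for the first interval, the second and the whole time (edgeR adjusted p = 0.91, 0.47 and 0.55). Its log2 count ratio to CTNNA1, the alpha-catenin found in most tissues, averaged -0.92 ± 0.16 (SD, n = 4), -0.91 ± 0.12 (n = 3) and -1.06 ± 0.26 (n = 4), with overlapping wells and no exact permutation p below 0.4. Exons of CTNNA1 share 445 bases with LRRTM2 on the opposite strand.

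**Figure D3:**
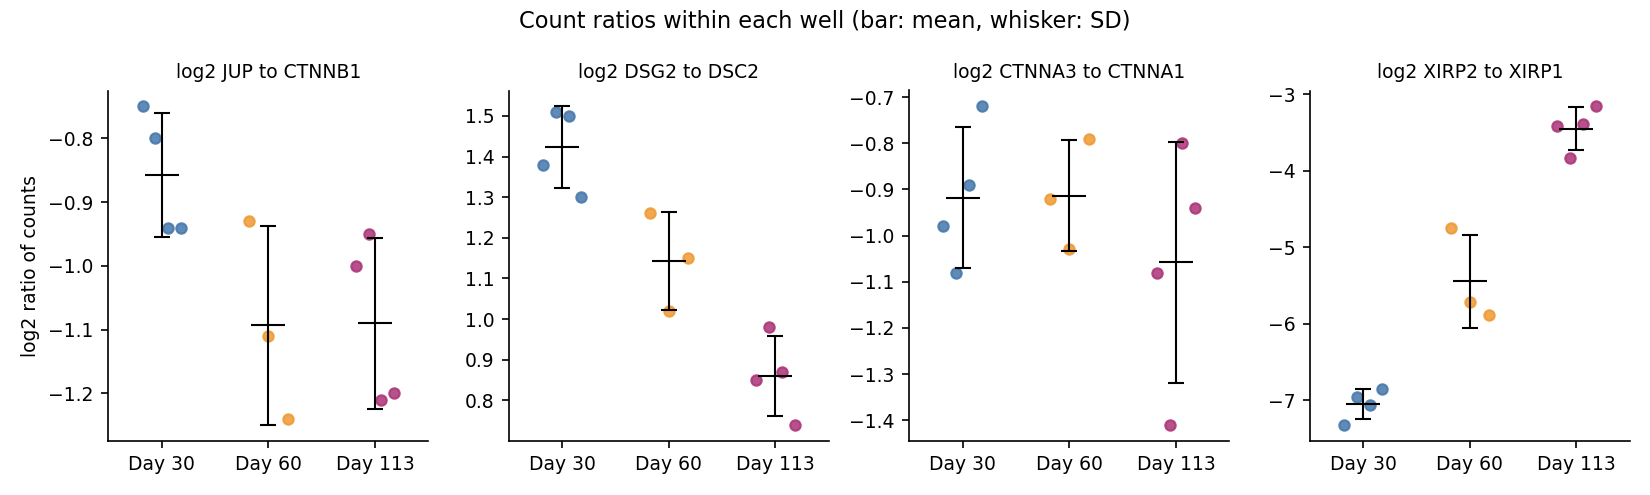
Log2 ratio of counts within each well (vertical axis, a different range per panel) for JUP to CTNNB1, DSG2 to DSC2, CTNNA3 to CTNNA1 and XIRP2 to XIRP1 at Day 30, Day 60 and Day 113, with a bar at the mean and a whisker of 1 SD. DSG2 to DSC2 steps down from 1.42 to 1.14 to 0.86, XIRP2 to XIRP1 climbs from -7.05 to -3.45, and CTNNA3 to CTNNA1 overlaps on all days.

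NRAP, XIRP1 and XIRP2 encode actin-binding proteins that sit where the myofibrils end at the disc, NRAP also during myofibril assembly. NRAP lies on chromosome 10 (113588716 to 113664127, minus strand). Its level was 8.90, 5.40, 4.84 and 9.24 CPM at Day 30, 16.8, 23.1 and 19.0 CPM at Day 60, and 24.1, 22.2, 31.5 and 18.9 CPM at Day 113. Every later well exceeded every Day 30 well, and Day 60 and Day 113 overlapped. NRAP rose by 1.47 ± 0.23 on the log2 scale from Day 30 to Day 60 (edgeR adjusted p = 0.00075), and 82.8% of its whole log2 change, 1.77 ± 0.22 (edgeR adjusted p = 1.7e-05), had taken place by then. The second step was 0.30 ± 0.23 (edgeR adjusted p = 0.37). Exons of NRAP share 367 bases with HABP2 on the opposite strand, so these reads too cannot be assigned without knowing the strand setting.

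XIRP1 encodes Xin, a disc protein that binds beta-catenin and actin filaments, from a short gene of 9.4 kb on chromosome 3 (39183210 to 39192596, minus strand). Its level was 595, 484, 472 and 551 CPM at Day 30, 358, 414 and 360.1 CPM at Day 60, and 448, 346, 388 and 339 CPM at Day 113. All later wells lay below all Day 30 wells, and the later days overlapped. XIRP1 fell by 0.48 ± 0.12 on the log2 scale in the first interval (edgeR adjusted p = 0.018), and its second step was 0.01 ± 0.12 (edgeR adjusted p = 0.96). From Day 30 to Day 113 it fell by 0.47 ± 0.11 (edgeR adjusted p = 0.0037). The call of the first interval was lost without Day 30 replicate 1 (adjusted p = 0.06), Day 60 replicate 1 (0.098) or Day 60 replicate 3 (0.1), each by edgeR.

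XIRP2 encodes the related Xin-repeat protein 2, known as myomaxin in mice, from 371.3 kb of chromosome 2 (166888487 to 167259753, plus strand). Its level was 3.70, 3.87, 3.52 and 4.78 CPM at Day 30, 13.3, 7.92 and 6.12 CPM at Day 60, and 42.3, 24.1, 37.1 and 37.9 CPM at Day 113. The 3 days did not overlap, and the Day 60 wells were the most uneven, with a coefficient of variation of 41.0%. XIRP2 rose by 1.20 ± 0.24 in the first interval (edgeR adjusted p = 0.005), a call that limma-voom did not make (adjusted p = 0.054). It rose by 1.95 ± 0.25 in the second (edgeR adjusted p = 6.5e-05) and by 3.15 ± 0.24 over the whole time (edgeR adjusted p = 1.1e-07), a ratio of 8.90. By Day 60, 38.0% of this log2 change had taken place.

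The 2 Xin-repeat genes were also compared within each well. The log2 ratio of XIRP2 to XIRP1 counts was -7.32, -6.96, -7.06 and -6.85 at Day 30, -4.75, -5.71 and -5.88 at Day 60, and -3.41, -3.84, -3.39 and -3.16 at Day 113. No 2 days overlapped. The mean differed by 1.60 between Day 60 and Day 30, by 1.99 between Day 113 and Day 60 (exact permutation p = 0.0571 each) and by 3.60 between Day 113 and Day 30 (exact p = 0.0286), with adjusted values of 0.098. On the linear scale there were 0.00757 XIRP2 counts per XIRP1 count at Day 30 and 0.0916 at Day 113. XIRP2 thus stayed far below XIRP1 in counts.

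NRAP and XIRP2 are also expressed in skeletal muscle. Of 5 skeletal muscle markers 2 were in the table, MYOD1 and MYOG, and their sum was 0 to 0.0764 CPM at Day 30, 0.811 to 1.56 CPM at Day 60 and 0.361 to 1.39 CPM at Day 113. MYF5, MYF6 and PAX7 were not analysed here. Markers of other cells moved at Day 113 as well. Their counts stand beside 34.5% of all genes called from Day 30 to Day 113 (17.3% higher and 17.2% lower). From Day 60 to Day 113, 12.9% of all genes were called higher. All 6 endothelial markers were higher at Day 113 than at either earlier day, with sums of 72.0 to 105 CPM at Day 30, 46.4 to 73.2 CPM at Day 60 and 211 to 815 CPM at Day 113. The 7 fibroblast markers summed to 3353 to 7706, 2068 to 3569 and 5427 to 13033 CPM, with 3 higher and 2 lower at Day 113 against Day 30, and 4 smooth muscle markers to 489 to 736, 619 to 846 and 778 to 1214 CPM, with 3 higher. The 8 cardiomyocyte markers summed to 22330 to 31956, 26194 to 30514 and 21461 to 27142 CPM. MYH7, a myosin heavy chain, was the largest part of the sum in every well. From Day 30 to Day 113, 2 of them rose, TNNT2 (2748 to 4334 CPM) and TNNI3 (78.1 to 298 CPM), and 2 fell, MYH7 (15412 to 9277 CPM) and ACTN2 (1710 to 1100 CPM), as means of 4 wells. The part of these cells in the changes of the disc genes was not tested. Day 113 replicate 2 was the lowest Day 113 well for 6 of the 10 genes (DSP, DSG2, DSC2, PKP2, CTNNA3 and XIRP2). The share of all genes lowest in that well was not counted. Chi-square per degree of freedom was 45 to 88.7 between it and the other Day 113 wells, and 26.7 to 46.9 among those. Its cardiomyocyte markers summed to 27142 CPM, the highest sum of that day, but they differed. TNNT2, TNNI3, MYL7, ACTN2 and NKX2-5 were highest in it. RYR2 was lowest in it (483 CPM against 844 to 919 CPM), and MYH6 and MYH7 were not highest.

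**Figure D4:**
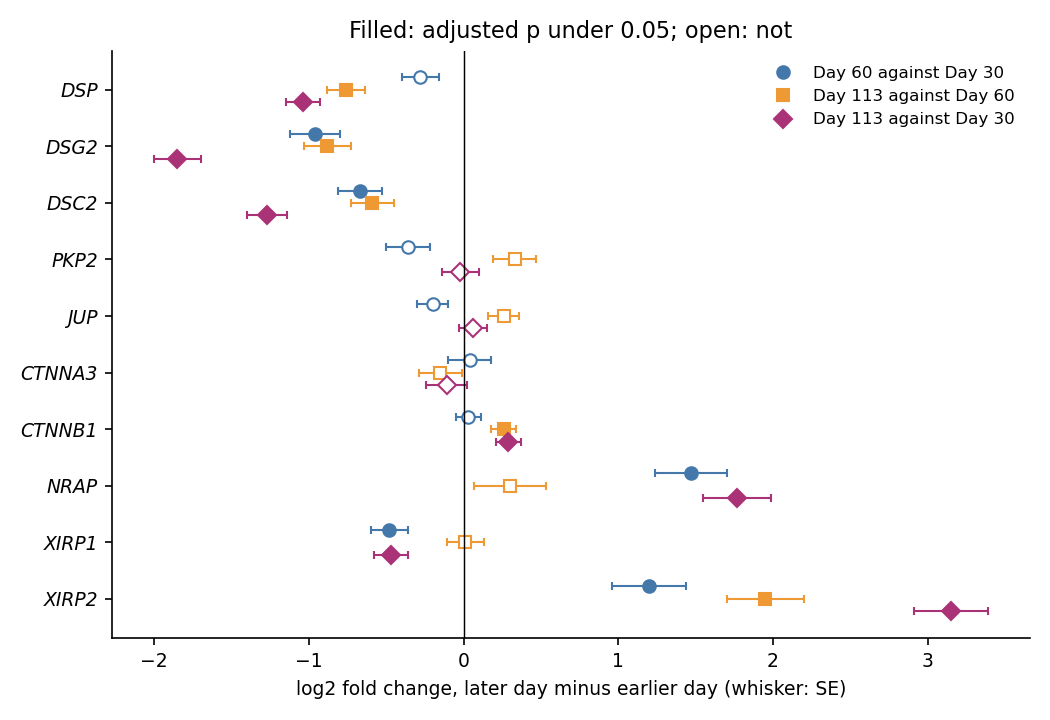
Log2 fold change (horizontal axis, later day minus earlier day) of each gene for Day 60 against Day 30, Day 113 against Day 60 and Day 113 against Day 30, with a whisker of 1 SE from edgeR and filled points for an adjusted p under 0.05. XIRP2 lies at 3.15 and DSG2 at -1.85 for the whole time, while PKP2, JUP and CTNNA3 have open points throughout.

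Per base of transcript the genes spread over a wide range. With CPM divided by the length of the principal transcript, the Day 30 levels were 141 CPM per kb for PKP2, 114 for CTNNB1, 86.8 for DSP, 85.2 for JUP, 81.3 for XIRP1, 40.2 for DSG2, 31.6 for CTNNA3, 7.02 for DSC2, 1.27 for NRAP and 1.21 for XIRP2. As neighbours in this order, DSP overlapped JUP, JUP overlapped XIRP1, DSG2 overlapped CTNNA3, and NRAP overlapped XIRP2. At Day 113 PKP2 and CTNNB1 stood at 139 CPM per kb each with overlapping wells, followed by JUP at 88.7, XIRP1 at 58.9, DSP at 42.2, CTNNA3 at 29.3, DSG2 at 11.2, XIRP2 at 10.7, NRAP at 4.33 and DSC2 at 2.92. Only DSG2 and XIRP2, besides the first pair, overlapped as neighbours in that order. DSP thus moved from the third to the fifth place, and XIRP2 from the last to the eighth. The order depends on the length used: with all exons joined, CTNNB1 (11927 bases in place of 4735) took the fifth place at Day 30, and XIRP2 (13031 in place of 3292) was last on every day.

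The genes whose pattern over the 11 libraries was most like that of 7 further disc genes were LGALSL for DSP (Pearson r = 0.986), XPO4 for PKP2 (0.968), SETD1A for JUP (0.979), NF1 for CTNNA3 (0.906), NBR1 for CTNNB1 (0.986), BRINP2 for NRAP (0.955) and PACS1 for XIRP1 (0.950). CAV3, which encodes the caveolin of muscle, was next for NRAP at 0.955. Across the 10 genes themselves, DSP tracked DSG2 (r = 0.93) and DSC2 (0.92) and ran against CTNNB1 (-0.95) and XIRP2 (-0.89), while PKP2 had values of 0.01, 0.08 and 0.13 with DSP, DSG2 and DSC2. These are descriptions over 11 libraries that share 3 days.

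The rest of the junction was read from 5 gene lists, also chosen with earlier results of these data known. Each is to be read against the 34.5% of all genes called from Day 30 to Day 113 (17.3% higher and 17.2% lower). Of 10 further adherens junction genes, 1 rose and 3 fell from Day 30 to Day 113 (median log2 fold change -0.18, against -0.02 over all genes), a share of 4 in 10 that is near that background. CDH2, the N-cadherin that beta-catenin and plakoglobin bind in heart muscle, fell by 0.52 ± 0.11 on the log2 scale (edgeR adjusted p = 0.0016), from 599.7 ± 53.4 CPM (SD, n = 4) to 418 ± 45.4 CPM (n = 4). AFDN, the actin-linked partner of nectins, and NECTIN2 fell by 0.68 ± 0.11 and 0.54 ± 0.14, and LMO7, an afadin-binding protein, rose by 0.32 ± 0.10, a call lost without Day 30 replicate 3 (edgeR adjusted p = 0.057) or without Day 113 replicate 1 (0.053). Of the 10 other desmosome genes 7 were in the table, and DSG1, DSG4 and PKP1 were not analysed here. Of the 7, 0 rose and 4 fell from Day 30 to Day 113 (DSG3, DSC3, PKP3 and PPL), with a median of -1.78 over the 7. DSG3 was near the floor, with 2 to 20 counts in the Day 30 wells and 0 in every Day 113 well. With 3 counts set in the Day 113 wells its bound was -2.18, still below the median, so this bound left the median unchanged. EVPL, at -1.85 next to the median, had 0 to 18 counts in the Day 113 wells. Its value ran from -4.29 to -1.43 under the alternatives, so the median depends on EVPL as well. The DSC3 call was lost in 5 alternatives (adjusted p up to 0.14). PPL, a plakin related to desmoplakin, fell by 1.78 ± 0.20 (edgeR adjusted p = 6.6e-06), from 69.9 ± 10.6 to 20.4 ± 7.37 CPM. PKP3, an epithelial plakophilin, was 6.00, 18.4, 17.9 and 5.29 CPM in the Day 30 wells, with the same wells high as for EPCAM, and at most 0.337 CPM in every later well.

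Of 13 genes for gap junctions, sodium channels and other disc anchors, 8 rose and 2 fell from Day 30 to Day 113 (median 0.69). The connexins GJA1 and GJA5 rose by 1.27 ± 0.10 and 2.56 ± 0.19, with edgeR adjusted p of 1.9e-07 and 8e-08. GJA1, the main connexin of ventricular muscle, went from 167 ± 14.7 to 247 ± 14.8 and 402 ± 48.0 CPM (SD, n = 4, 3 and 4), with no overlap between days. DES, whose product desmin is the filament that desmoplakin anchors, rose by 1.90 ± 0.14 (edgeR adjusted p = 8e-08), from 12.0 ± 1.17 to 44.5 ± 7.91 CPM, over the time in which DSP fell. MYZAP, a disc protein of the cardiac muscle membrane, rose by 1.66 ± 0.14 (edgeR adjusted p = 3e-07). The part of endothelial cells, which can express GJA1 and GJA5, was not tested.

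Of 12 actin-linked partners of Xin and NRAP, 2 rose and 4 fell from Day 30 to Day 113 (median -0.24). KLHL41, an NRAP-binding protein of myofibril assembly, fell by 1.08 ± 0.11 (edgeR adjusted p = 1.9e-06), while NRAP rose. VASP, an actin regulator, rose by 0.67 ± 0.11 (edgeR adjusted p = 0.00019), and CSRP3, muscle LIM protein, fell by 0.41 ± 0.11 (edgeR adjusted p = 0.01). LASP1, a small relative of NRAP, fell by 0.69 ± 0.19 to Day 60 and rose by 0.64 ± 0.19 after it (edgeR adjusted p = 0.026 and 0.02), calls that were lost without 1 of several wells, among them Day 60 replicates 1 and 3. Of 14 beta-catenin pathway genes in the table, 1 rose and 5 fell (median -0.39), a share of 6 in 14 beside the background of 34.5% (17.2% lower), and SP5 was not analysed here. LEF1, a DNA-binding partner of beta-catenin, fell by 1.63 ± 0.16 (edgeR adjusted p = 1.2e-06), and RNF43 by 0.79 ± 0.16 (edgeR adjusted p = 0.00095). AXIN2 fell by 0.48 ± 0.15 (edgeR adjusted p = 0.022), a call lost in 3 fits that each left out 1 well (up to 0.075). APC, part of the complex that degrades beta-catenin, rose by 0.74 ± 0.15 (edgeR adjusted p = 0.0014). CTNNB1 itself rose over the same time.

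**Figure D5:**
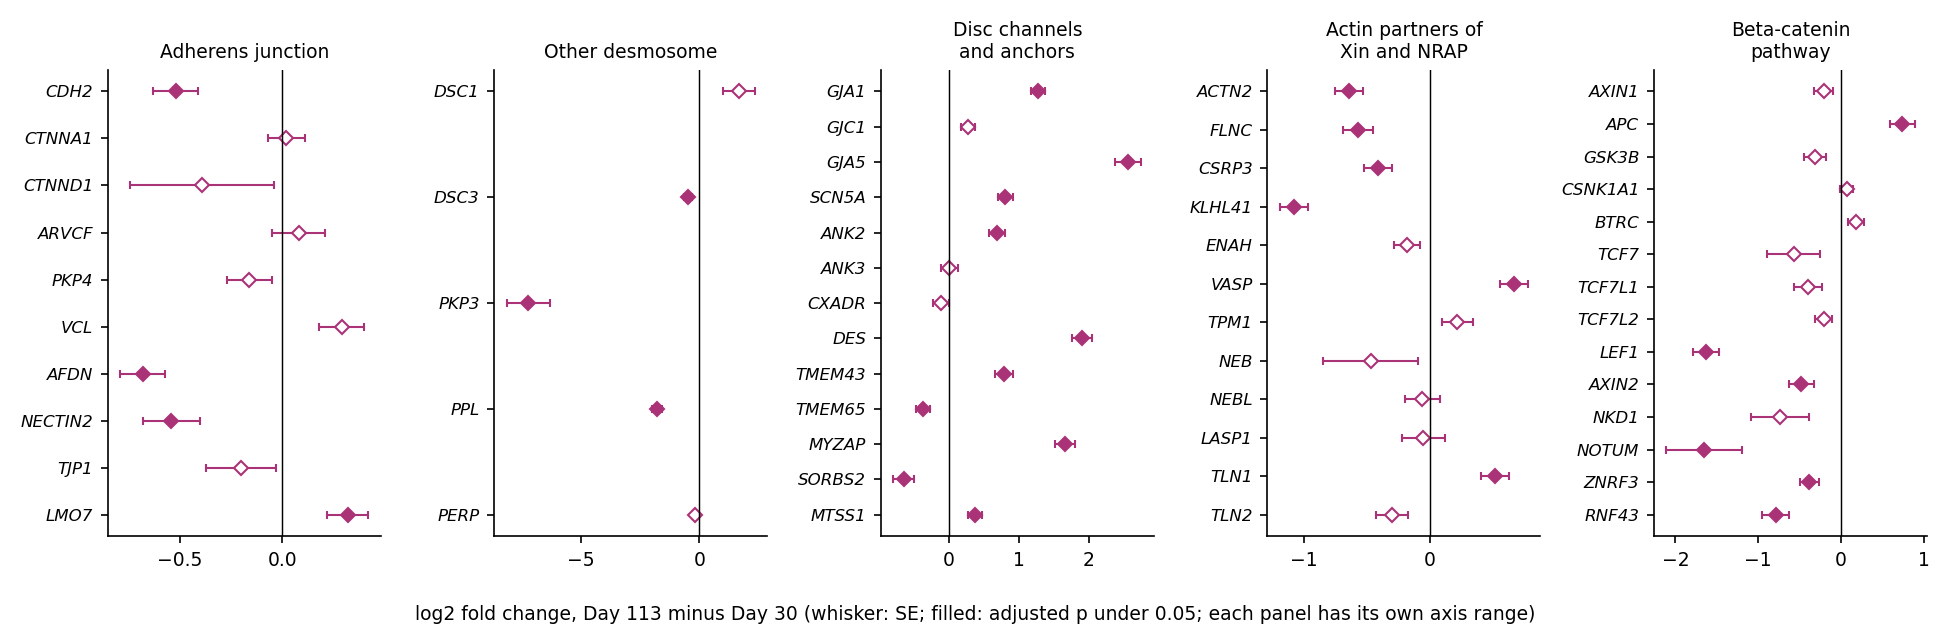
Log2 fold change from Day 30 to Day 113 (horizontal axis, a different range per panel) of the genes of 5 lists, with a whisker of 1 SE from edgeR and filled points for an adjusted p under 0.05. Genes with 3 counts or fewer in every well of a day, such as DSG3, are left out, and the filled points lie mostly above 0 for channels and anchors (GJA5 at 2.56) and mostly below 0 for the beta-catenin pathway (LEF1 at -1.63).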

How the data were processed

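Poly(A) RNA of 11 wells was sequenced, and per the submitters' processing notes hg38, STAR 2.5.3a and featureCounts 2.0.3 were used. The authors deposited whole-number read counts per gene symbol, with no normalization, and a TPM table whose columns sum to 1000000. Annotation and strand setting are not given in the sources used here. The gene length implied by count divided by TPM varied 15.7-fold to 149-fold between libraries for the 10 genes, so TPM values entered no comparison.

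Counts were tested with edgeR 4.0.16 in R 4.3.3 (glmQLFit and glmQLFTest, TMM scaling, filterByExpr with a minimum count of 10, which removed no gene), with day as the only factor and 11 libraries in one fit. Benjamini-Hochberg adjustment ran over 19990 genes per contrast, with a threshold of 0.05. The SE of a log2 fold change is its size over the root of its F statistic. The script was tested on simulated data. Ratios used counts plus 0.5 and two-sided exact permutation tests in scipy 1.17.1, adjusted over 12 tests. Gene positions and lengths came from GENCODE release 29 (GRCh38). Intervals are not given for single shares, and a floor of 3 counts covers counting error only, since the libraries had no molecular identifiers.

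Named were the 10 genes, up to 4 genes of each pathway list with the largest absolute log2 fold change among those called in any pair of days at a mean of at least 5 CPM on the higher day, the marker genes, CTNNA1, and of the 3 genes most like each member the first, with CAV3 for NRAP. Those for XIRP2 are not reported here. DSG3, DSC3, PKP3, PPL and list members not analysed here were also named to account for a count, and EVPL to account for a median. The members and lists were chosen with earlier results of these data known. Replicate numbers were shared between days. The deviations of same-numbered wells correlated at 0.0227 to 0.0761 (10 pairs, 0 over 0.1). These values were low but all above 0. In 17 of 20 combinations of a well and another day, the highest correlation was with the same number. A link between same-numbered wells is therefore not excluded. The main fit did not pair them, and a replicate block was run as an alternative. Alternatives were RLE, upper-quartile and library-total scaling, DESeq2 1.42.0, limma-voom (limma 3.58.1), robust dispersions, 2 filters, fits of 2 days, a replicate block and leaving out each well.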

Additional observations from a re-analysis of the deposited data

How the results depend on the processing

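The 7 genes called between Day 30 and Day 113 were called in all 20 alternatives run for that pair, not counting the fit with no filter, which equals the reported one because the filter removed no gene. Of 980 values of the 10 genes under the alternatives, 936 kept direction and side of the threshold, 12 lost a call, 10 gained one and 22 changed sign. Of 1139 values of the named list genes these numbers were 1063, 58, 11 and 7. The cause of the sign changes was not tested. Under upper-quartile scaling the difference between the intervals was -0.03 for DSG2 and for DSC2, and the second step of XIRP1 was -0.06. That step was -0.004 with RLE factors and with DESeq2, -0.01 with the stricter filter and -0.002 with only those days fitted. With library totals the whole change of PKP2 was 0.0028. Leaving out 1 well gave a difference between the intervals of -0.12 to 0.26 for DSG2 and -0.05 to 0.25 for DSC2, a whole change of -0.13 to 0.09 for PKP2, -0.21 to 0.0034 for CTNNA3 and -0.24 to 0.05 for LASP1, a second step of -0.08 to 0.08 for XIRP1 and -5.07 to 0.63 for PKP3, and a first step of -0.1 to 0.03 for VASP and -0.19 to 0.04 for RNF43. The CTNNA3 to CTNNA1 difference of the first interval ran from -0.05 to 0.07, and the JUP to CTNNB1 difference of the second from -0.07 to 0.08. With 1 well left out, the members called were 4 to 6, 4 to 6 and 7 to 7 for the first interval, the second and the whole time, 7 to 8 for any change and 0 to 1 for the difference between intervals (2 with DESeq2). All genes called were 1220 to 2618 in the first interval (1220 without Day 60 replicate 3, 1259 without Day 60 replicate 1, 1323 without Day 30 replicate 2) and 643 to 2221 for the difference between intervals (643 without Day 60 replicate 1, 774 without Day 60 replicate 3). With a replicate block 5, 6 and 7 of the 10 genes were called for the 3 pairs of days and 8 for any change, JUP being gained (adjusted p = 0.032 and 0.049, edgeR), and of 20 combinations of a well and another day 17 had their highest correlation with the same number, a hint from the data and not the design. Under the block the 12 ratio differences kept their sign, with adjusted p from 0.273 to 0.75, and sign flips cannot go below 0.25 with 3 pairs. Upper-quartile scaling moved the split of all calls from 2570 higher and 2220 lower to 2083 and 2650 for Day 113 against Day 60.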
